A study of Mus musculus with 13 samples.

Results

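Tumours of PDGFRb-TK mice given control IgG (TK/IgG) were compared with tumours of wild-type mice given control IgG (WT/IgG), with 3 arrays in each group. These are 6 of the 13 samples of the series, chosen by their titles. The comparison covered 10566 genes, those of the 19057 genes named on the array whose probe was detected above background (detection p below 0.05) on at least 3 of the 6 arrays.

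All tumours were grown from 4T1 cells, a mouse mammary carcinoma line, placed in the mammary gland of the host (orthotopic). In the PDGFRb-TK line a viral thymidine kinase is made in cells that use the Pdgfrb promoter. Ganciclovir (GCV) is toxic to dividing cells that hold this enzyme, and it was injected in every sample, wild-type hosts included, according to the labels. A further label field, named for PDGFRb-TK, reads positive in every sample, also in the WT/IgG hosts, so the groups here follow the titles and the genotype field, which agree for these 6 samples. On the same platform, 3 arrays come from PDGFRb-TK hosts that received an anti-angiopoietin-2 antibody (TK/anti-Ang2), and they entered the fit to share its estimate of the spread. Another platform holds 4 arrays, 1 each of early pericyte ablation, its control, late pericyte ablation and its control. Nothing in the labels ties a replicate to an animal of its own. The p-values therefore reflect the spread of these samples alone, and that spread may be technical.

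Pericytes are the mural cells that lie on capillaries within the vascular basement membrane. Endothelial cells release the ligand PDGF-B, and the receptor made from Pdgfrb on pericytes answers to it, which recruits and keeps these cells on the vessel wall. Many fibroblasts of tumour stroma, the cells that lay down interstitial collagen, also use Pdgfrb, so the promoter marks both cell types. In bulk tumour RNA, fewer cells of a type and less RNA per cell cannot be told apart.

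The 6 arrays compared were alike in quality. Between 40.8 and 43.2% of probes were detected on the 6 arrays, and the median signal before normalisation was 120.3 to 134.7. Correlations across genes were 0.9596 to 0.9701 for the 3 pairs of TK/IgG arrays, 0.9748 to 0.9813 for the 3 pairs of WT/IgG arrays, and 0.9641 to 0.9821 for the 9 pairs between the groups. The pairs between the groups were thus no less alike than the pairs of TK/IgG arrays. The median gene had an SD of 0.228 over the TK/IgG arrays and 0.205 over the WT/IgG arrays, and 56.5% of genes had the larger SD in TK/IgG. Among epithelial markers, Krt8 was at a log2 signal of 13.38 ± 0.18 in TK/IgG tumours and 13.72 ± 0.25 in WT/IgG tumours (SD, n = 3 each), and Krt18 at 12.33 ± 0.19 in TK/IgG and 12.52 ± 0.22 in WT/IgG tumours. Of 15 epithelial markers, 13 passed the detection filter, and Epcam did not. By mean, 10 of the 13 were higher in TK/IgG and 3 lower, Krt8 and Krt18 among the lower, with a median difference of 0.15 in log2 signal.

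No gene passed the test. In limma's moderated test 0 of 10566 genes (0%) had an adjusted p below 0.05, and 307 (2.91%) had an unadjusted p below 0.05, where 5% of the genes would be 528. Of these, 123 (1.16% of genes tested) were higher and 184 (1.74%) lower in TK/IgG. Without WT/IgG replicate 2 the count was 186. It was 394 when only the 6 arrays were normalised and fitted, and 419 without TK/anti-Ang2 replicate 2. In the main fit the lowest adjusted p was 0.442, for Slc24a3, and it was 0.991 or higher for every other gene tested. The 3 arrays of 1 group lay wholly apart from the 3 of the other for 872 genes (8.25%), of which 330 (3.12%) were higher and 542 (5.13%) lower in TK/IgG. Below, this is given as the arrays not overlapping, and the exact two-sided permutation p is then 0.1, the smallest that 3 against 3 arrays allow. If the labels of the 6 arrays were exchangeable, a share of 0.1 of genes would lie apart on average. The share seen, 8.25%, was below that, so arrays that do not overlap are no sign of a difference by themselves. All differences are on the log2 scale, TK/IgG minus WT/IgG. They are given as measured values, since none of them is called. The median difference of all genes was -0.02, and the mean was higher in TK/IgG for 4818 genes (45.6%) and lower for 5748 (54.4%). When arrays were scaled to a common median without quantile normalisation, the median of all genes was -0.11, and 3253 genes were higher and 7313 lower. Differences of 1 or more were seen for 65 genes, 33 higher and 32 lower, 31 of them with arrays that did not overlap. No gene differed by 2 or more, at a median standard error of 0.209.

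Pdgfrb itself, the gene whose promoter drives the transgene, was the 10th gene by p. Its log2 signal was 6.11, 5.64 and 6.23 on the TK/IgG arrays, against 7.01, 6.93 and 7.33 on the WT/IgG arrays. Every TK/IgG array lay below every WT/IgG array, and the gap between the groups was larger than the range within either. The means were 5.99 ± 0.31 and 7.09 ± 0.21 (TK/IgG and WT/IgG, SD, n = 3 each), a difference of -1.10 with a 95% interval of -1.67 to -0.52 and a limma adjusted p of 0.999. The TK/anti-Ang2 arrays averaged 6.0 ± 0.45. The size of the difference depended on the background correction, at -0.69 with normexp and -0.52 with none.

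Of the other genes of the platelet-derived growth factor system, the 3 ligands tested were higher in TK/IgG by mean. None had an unadjusted p below 0.05 in limma's test, and a further ligand, Pdgfd, did not pass the detection filter. Pdgfa, which acts chiefly on the receptor of Pdgfra, was at 11.66, 11.78 and 11.54 in TK/IgG tumours, against 11.46, 11.19 and 11.23 in WT/IgG tumours. The arrays did not overlap, with a difference of 0.37 (SE 0.18). Pdgfb, the endothelial ligand for the receptor on pericytes, was at 9.60, 8.97 and 9.64 in TK/IgG, against 8.90, 8.70 and 9.35 in WT/IgG. Its groups overlapped and the difference was 0.42 (SE 0.27, and 0.64 without TK/IgG replicate 2). Pdgfc differed by 0.15 (SE 0.36). Pdgfra, the receptor of fibroblasts, gave 10.19, 10.50 and 10.16 in TK/IgG tumours, against 10.57, 10.06 and 10.28 in WT/IgG tumours. These arrays were interleaved, and the 95% interval of the difference ran from -0.78 to 0.74.

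**Figure D1:**
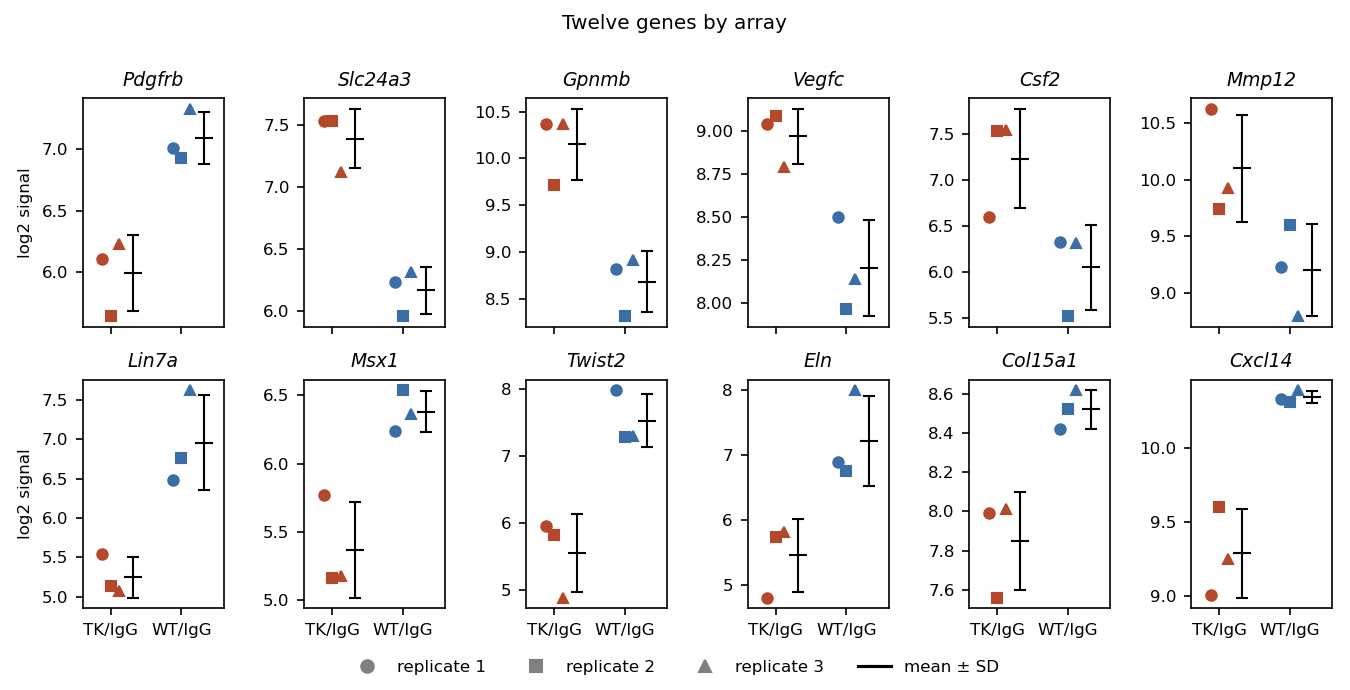
Log2 signal of 12 genes (vertical axes, scaled per gene) on each of the 3 TK/IgG arrays, left, and the 3 WT/IgG arrays, right, with symbols for replicates and bars for the mean ± SD. The groups do not overlap for any of the 12, which were chosen after their values were seen: Pdgfrb averaged 5.99 in TK/IgG and 7.09 in WT/IgG, and Slc24a3 averaged 7.39 in TK/IgG and 6.17 in WT/IgG.

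Mural cell markers other than Pdgfrb were measured for 16 of 22 genes, 21 of them on annotated probes. Of the 16, 4 were higher and 12 lower in TK/IgG, with a median of -0.17 (-0.04 without TK/IgG replicate 2, -0.05 without TK/IgG replicate 1 and -0.29 without TK/IgG replicate 3). Arrays did not overlap for 1 higher and 1 lower gene of the 16, beside 3.12% and 5.13% of all genes. Cd248 (endosialin, on pericytes and stromal fibroblasts) was at 8.72, 8.52 and 8.74 in TK/IgG tumours, against 9.51, 9.16 and 8.57 in WT/IgG tumours. WT/IgG replicate 3 lay among the TK/IgG arrays, and the difference of -0.42 had an interval of -1.51 to 0.67. It was -0.21 with WT/IgG replicate 1 left out and -0.68 with WT/IgG replicate 3 left out. Acta2, smooth muscle actin, was at 11.84, 10.96 and 11.35 in TK/IgG, against 11.99, 12.06 and 11.17 in WT/IgG, a difference of -0.35 with an interval of -1.05 to 0.34. It was -0.14 with TK/IgG replicate 2 left out and -0.64 with WT/IgG replicate 3 left out. Abcc9, a potassium channel subunit of pericytes, was the mural gene whose arrays all lay lower, at 5.73, 5.99 and 5.53 in TK/IgG and 6.04, 6.23 and 6.13 in WT/IgG (difference -0.38, SE 0.17). The arrays of Mylk, the myosin light chain kinase of smooth muscle, all lay higher, at 8.78, 9.04 and 8.93 in TK/IgG and 8.50, 8.19 and 8.53 in WT/IgG (difference 0.51, SE 0.15, 3 probes of the same sign).

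Other pericyte markers had intervals that spanned 0. Notch3, the Notch receptor of mural cells, differed by -0.09 (interval -0.75 to 0.56), the adhesion molecule Mcam by 0.11 (-0.44 to 0.66), and the proteoglycan Cspg4 (NG2) by 0.36 (-0.18 to 0.90). Des, the intermediate filament desmin of mural and skeletal muscle cells, ranged from 6.52 to 9.44 in TK/IgG and from 5.84 to 9.85 in WT/IgG tumours. Its interval, -3.24 to 2.65, was too wide to place it on either side. Rgs5, a signalling regulator of pericytes, was detected on 1 TK/IgG and 1 WT/IgG array and was not tested, with log2 signals of 4.41, 5.11 and 4.82 in TK/IgG and 5.01, 4.73 and 5.46 in WT/IgG.

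Genes of the interstitial matrix and its fibroblasts were lower in TK/IgG for 32 of the 42 members tested and higher for 10. The list has 52 genes, 47 of them on annotated probes. The median difference was -0.51, against -0.02 for all genes. Of the 42, 6 were lower at an unadjusted p below 0.05 and none higher, beside 1.74% and 1.16% of all genes. The arrays did not overlap for 12 lower members and 1 higher, beside 5.13% and 3.12% of all genes. Averaged over the list, the log2 signal was 8.99, 8.81 and 8.95 on the TK/IgG arrays, against 9.75, 9.18 and 9.21 on the WT/IgG arrays. WT/IgG replicate 1 stood highest, and without it the median of the list was -0.24. No member was called (adjusted p of 0.999 for each that is named).

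Among fibrillar and associated collagens, 9 of 10 were lower (median -0.70, 4 at an unadjusted p below 0.05, beside 1.74% of all genes). Col3a1, type III collagen, was at 7.62, 7.48 and 8.19 in TK/IgG tumours, against 9.61, 8.79 and 9.30 in WT/IgG tumours. The arrays did not overlap (difference -1.47, SE 0.64). Col1a1, a chain of type I collagen, was at 9.39, 8.39 and 8.46 in TK/IgG, against 10.35, 9.34 and 9.96 in WT/IgG. TK/IgG replicate 1 overlapped the lowest WT/IgG array, and the difference was -1.14 (SE 0.53). Its partner chain Col1a2 was at 6.22, 4.96 and 5.78 in TK/IgG and 6.85, 6.23 and 6.45 in WT/IgG, where TK/IgG replicate 1 lay just under the lowest WT/IgG array (difference -0.86, SE 0.37). Col1a2 was detected on 2 TK/IgG arrays and all 3 WT/IgG arrays. The type VI collagens, which form beaded filaments around cells, were lower on every TK/IgG array. Col6a2 was at 7.91, 7.07 and 7.16 in TK/IgG and 8.51, 8.16 and 8.56 in WT/IgG (-1.03, SE 0.34, but -0.14 for its other probe). Col6a1 was at 11.46, 11.01 and 10.60 in TK/IgG and 11.55, 11.48 and 11.68 in WT/IgG (-0.55, SE 0.22, and -0.33 without TK/IgG replicate 3). Col5a1 and Col8a1 differed by -0.21 and 0.00, so the collagens were not shifted by 1 amount.

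Genes of elastic fibres and microfibrils were lower for 6 of 7 (median -0.65). Eln, the elastin gene, had the lowest difference of the list, at 4.80, 5.74 and 5.81 in TK/IgG tumours, against 6.89, 6.75 and 8.0 in WT/IgG tumours. It was detected on 2 TK/IgG arrays and all 3 WT/IgG arrays, with a difference of -1.76 (SE 0.54). Mfap2, a microfibril glycoprotein, was at 7.28, 6.12 and 6.25 in TK/IgG, against 8.10, 7.63 and 7.70 in WT/IgG (-1.26, SE 0.60). Neither gene's arrays overlapped. Mfap5, Fbln1 and Mfap4 were lower by mean, at -0.95, -0.65 and -0.60, while Emilin1 and Fbln2 differed by -0.04 and 0.01.

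The small leucine-rich proteoglycans, which bind collagen fibrils, were more varied, with 5 of 6 proteoglycans lower and a median of -0.27. Lum (lumican) was at 8.29, 7.56 and 7.43 in TK/IgG, against 9.58, 8.38 and 8.78 in WT/IgG, and the arrays did not overlap (-1.15, SE 0.78). Dcn (decorin) was at 10.72, 11.35 and 12.26 in TK/IgG, against 12.18, 11.12 and 11.55 in WT/IgG. These overlapped fully, with TK/IgG replicate 3 the highest of the 6 (-0.18, SE 0.57). Of enzymes and chaperones of collagen, 4 of 7 were lower (median -0.24), among them the lysyl oxidases Loxl1 (-0.77, SE 0.55) and Loxl3 (-0.33, SE 0.23), whose arrays did not overlap. Loxl3 was detected on 1 TK/IgG array and 3 WT/IgG arrays, so most of its TK/IgG signals were not above background. The collagen chaperone Serpinh1 differed by 0.03 and the lysyl hydroxylase Plod2 by 0.26.

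Fibroblast surface and matricellular genes were lower for 8 of 12 (median -0.51). Thy1, a surface glycoprotein of fibroblasts and T cells, was at 10.49, 9.69 and 10.29 in TK/IgG, against 11.13, 11.10 and 11.04 in WT/IgG (-0.93, SE 0.38). The WT/IgG arrays lay close together and above all TK/IgG arrays. Fap, the fibroblast activation protein, was at 6.27, 6.54 and 6.4 in TK/IgG and 7.31, 6.58 and 6.85 in WT/IgG, and its arrays did not overlap (-0.51, SE 0.42). Ccn2, a matricellular target of TGF-beta, was the member that lay higher on every TK/IgG array, at 12.68, 12.26 and 12.16, against 12.11, 12.06 and 11.78 in WT/IgG (0.39, SE 0.19). Mgp and Fn1 were also above 0, at 0.58 and 0.26, with overlapping arrays.

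**Figure D2:**
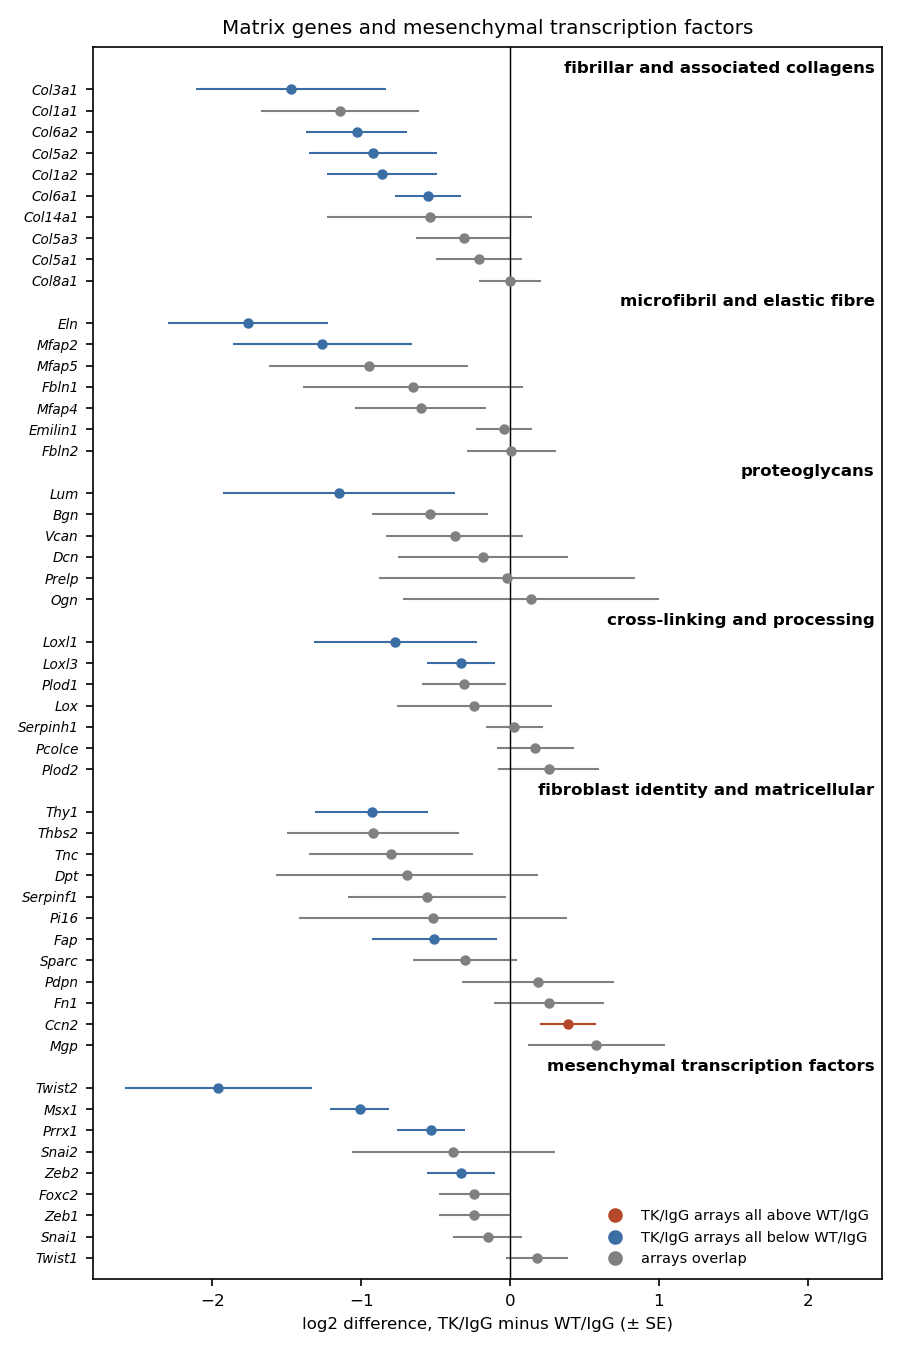
Difference in log2 signal, TK/IgG minus WT/IgG (horizontal axis, bars ± SE), for the 42 matrix genes tested and 9 mesenchymal transcription factors, grouped by role. Blue marks genes whose 3 TK/IgG arrays all lie below the 3 WT/IgG arrays, red the reverse and grey overlap: most points lie left of 0, from -1.96 for Twist2 to 0.58 for Mgp.

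Transcription factors of the mesenchymal state, which direct fibroblast and neural crest programmes, were lower for 8 of 9 (median -0.33), with 3 lower at an unadjusted p below 0.05 and 4 lower with arrays that did not overlap, beside 1.74% and 5.13% of all genes. Twist2 was at 5.96, 5.83 and 4.89 in TK/IgG, against 7.99, 7.29 and 7.30 in WT/IgG tumours. It had the lowest difference of all genes tested, -1.96 (SE 0.63), and was detected on 2 of the TK/IgG arrays. The homeobox gene Msx1 was at 5.77, 5.16 and 5.18 in TK/IgG, against 6.24, 6.54 and 6.36 in WT/IgG (-1.01, SE 0.20). Prrx1, a homeobox gene of fibroblast progenitors, was at 6.08, 5.96 and 5.74 in TK/IgG, against 6.59, 6.39 and 6.39 in WT/IgG (-0.53, SE 0.23, 3 probes of the same sign). Zeb2 was lower on every array too (-0.33, SE 0.23), while Snai1, Zeb1 and Foxc2 differed by -0.15, -0.24 and -0.24 and Twist1 by 0.18. Adhesion, signal and receptor genes of mesenchymal transition were 5 higher and 5 lower (median -0.07). Over all 19 members of that list the median was -0.17, with -0.09 when TK/IgG replicate 3 was left out and -0.28 when TK/IgG replicate 1 was.

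In the vascular basement membrane, 10 of 13 genes were lower and 3 higher, with a median of -0.17. Col15a1, a collagen that joins basement membrane to the interstitial matrix, was at 7.99, 7.56 and 8.01 in TK/IgG, against 8.42, 8.52 and 8.62 in WT/IgG (-0.67, SE 0.17). Lamb1, a laminin chain, was at 6.58, 6.64 and 6.83 in TK/IgG, against 6.99, 7.15 and 7.08 in WT/IgG (-0.39, SE 0.18). These were the 2 members of 13 whose arrays did not overlap, beside 5.13% of all genes lower in this way. Nid1, a linker of laminin and collagen IV, overlapped (-0.41, SE 0.36, -0.25 with WT/IgG replicate 3 left out and -0.16 with TK/IgG replicate 1 left out), and its further probe had the other sign.

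Proteases that cut matrix and their inhibitors were lower for 10 of 13 (median -0.23, -0.08 without TK/IgG replicate 2 and -0.39 without TK/IgG replicate 1). Of the 3 on the other side, Mmp12, the macrophage elastase, was at 10.63, 9.74 and 9.93 in TK/IgG, against 9.23, 9.60 and 8.79 in WT/IgG (0.89, SE 0.29), while Timp3 and Mmp9 were at 0.38 and 0.15 with overlapping arrays. The arrays of Mmp12 did not overlap, though TK/IgG replicate 2 and WT/IgG replicate 2 were close. Mmp3, stromelysin 1, was at 11.35, 10.09 and 10.09 in TK/IgG and 11.10, 11.61 and 10.80 in WT/IgG, with TK/IgG replicate 1 among the WT/IgG arrays (-0.66, SE 0.40, and -1.08 without that array).

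Endothelial genes had a median difference of 0.00, with 10 of 23 higher, 13 lower and none whose arrays lay apart. Pecam1 (CD31) was at 8.27, 8.16 and 8.59 in TK/IgG, against 8.40, 7.17 and 8.42 in WT/IgG. The difference of 0.34 rested on WT/IgG replicate 2 and was -0.07 without it, and the other Pecam1 probe differed by -0.15. Cdh5 (VE-cadherin), Kdr (the main VEGF receptor) and Tek (the angiopoietin receptor) differed by 0.03, -0.10 and 0.02. Aplnr, the apelin receptor of sprouting vessels, had the widest difference, at 4.76, 6.28 and 7.42 in TK/IgG and 7.27, 6.89 and 7.66 in WT/IgG (-1.12, interval -2.37 to 0.13, -0.42 without TK/IgG replicate 1 and -1.75 without TK/IgG replicate 3). It was detected on 2 TK/IgG arrays and all 3 WT/IgG arrays. The 4 lymphatic genes tested had a median of -0.05, and Notch pathway genes 0.05 (6 of 11 higher). The endothelial, lymphatic, Notch and angiogenic medians each turned sign as single arrays were left out.

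Of 14 angiogenic signals, 7 were higher and 7 lower (median -0.01). Arrays lay apart for 3 higher members and no lower one, beside 3.12% and 5.13% of all genes. Vegfc, a ligand of the lymphatic VEGF receptor, was at 9.04, 9.09 and 8.79 in TK/IgG, against 8.50, 7.96 and 8.14 in WT/IgG (0.77, interval 0.32 to 1.23). Esm1, a proteoglycan of endothelial tip cells, was at 9.56, 9.02 and 9.30 in TK/IgG, against 8.39, 6.73 and 8.54 in WT/IgG (1.41, SE 0.56, and 0.83 without WT/IgG replicate 2, the lowest array). Angpt2 was at 11.11, 10.29 and 10.29 in TK/IgG, against 10.11, 9.90 and 10.20 in WT/IgG, with TK/IgG replicate 1 standing above the rest.

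The gene with the smallest p, Slc24a3, which exchanges sodium for calcium and potassium across the membrane, was at 7.53, 7.53 and 7.12 in TK/IgG tumours, against 6.24, 5.96 and 6.32 in WT/IgG tumours. The arrays did not overlap (interval 0.84 to 1.59), and the TK/anti-Ang2 arrays averaged 7.70. Gpnmb, a glycoprotein of lipid-laden macrophages and osteoclasts, was at 10.37, 9.72 and 10.37 in TK/IgG, against 8.82, 8.32 and 8.92 in WT/IgG (1.47, interval 0.92 to 2.02, and 0.62 for its other probe). It was the single member of its list whose arrays lay apart, 1 of 12, beside 3.12% of all genes higher in this way. The other 11 of the 12 lipid-laden macrophage genes tested left the median at 0.07, which was -0.04 with median scaling and -0.03 without TK/IgG replicate 2. Slc40a1, the iron exporter ferroportin, was at 10.46, 8.74 and 9.30 in TK/IgG, against 8.45, 8.07 and 8.0 in WT/IgG (1.32, SE 0.38). TK/IgG replicate 1 stood highest, and without it the difference was 0.84. Il7r, the interleukin-7 receptor, was at 7.41, 6.71 and 7.08 in TK/IgG, against 6.45, 6.21 and 6.48 in WT/IgG (0.69, SE 0.19).

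The other genes among the 12 smallest p on the higher side were near the detection limit. Ripply3, a transcriptional repressor, was at 5.75, 5.68 and 5.85 in TK/IgG, against 5.04, 4.95 and 5.28 in WT/IgG (0.67), and Slc23a3, of the family of vitamin C transporters, was at 6.10, 5.98 and 5.93 in TK/IgG, against 5.37, 5.20 and 5.27 in WT/IgG (0.73). The zinc finger gene Glis1 was at 5.66, 5.56 and 5.36 in TK/IgG, against 4.81, 5.08 and 4.78 in WT/IgG (0.63), and Crebl2 at 5.91, 5.90 and 5.66 in TK/IgG, against 5.25, 5.08 and 5.12 in WT/IgG (0.67). The arrays of each gene did not overlap. Ripply3 and Glis1 were detected on 3 TK/IgG arrays and 1 WT/IgG array each, so most of their WT/IgG signals were not above background. Tbx2, Olfr952 and Rhpn2 were detected on no WT/IgG array and passed the detection filter through TK/IgG alone. They can be given only as at least 1.07-fold, 1.11-fold and 1.21-fold higher in TK/IgG. These bounds set the mean of the brighter group against the lowest detected signal of each dimmer array, or the probe's own signal if that was higher.

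On the lower side, Lin7a, a PDZ protein of cell polarity, had the smallest p, at 5.54, 5.14 and 5.07 in TK/IgG, against 6.48, 6.77 and 7.63 in WT/IgG (-1.71, SE 0.30, limma adjusted p = 0.991). Stard4, a cholesterol carrier, was at 7.37, 7.75 and 7.63 in TK/IgG, against 8.01, 8.51 and 8.47 in WT/IgG (-0.75, SE 0.19). C1qtnf3, a secreted relative of adiponectin, was at 5.90, 5.54 and 5.40 in TK/IgG, against 6.89, 6.18 and 7.36 in WT/IgG (-1.20, SE 0.32). In each the highest TK/IgG array was below the lowest WT/IgG array. The H2A histone genes H2ac21 and H2ac7 were lower by mean, at -0.73 and -0.53. H2ac21 was at 7.73, 7.39 and 7.56 in TK/IgG, against 8.27, 8.54 and 8.07 in WT/IgG, and H2ac7 at 13.15, 12.95 and 13.20 in TK/IgG, against 13.74, 13.62 and 13.53 in WT/IgG. Histone genes of 1 family are close in sequence, so their probes may share signal. Msx3, another homeobox gene of the Msx family, differed by -0.92 with 3 probes of the same sign. Sh3bp1 and Atp2c2 differed by -0.73 and -0.69, but each was detected on 1 TK/IgG array and 3 WT/IgG arrays, so most of their TK/IgG signals were not above background. Brinp3 was detected on no TK/IgG array, passed the detection filter through WT/IgG alone and was at least 1.24-fold lower.

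Across the platform 19 genes were detected on all 3 TK/IgG arrays and no WT/IgG array, and 20 the other way. The largest bounds on the higher side were for Abca14, Eml5, Hoxb3, Rcc2 and Tom1l1, at least 1.51, 1.35, 1.34, 1.32 and 1.24-fold higher. On the lower side the nonagouti coat colour gene, which signals in hair follicles, was at 4.63, 4.88 and 4.65 in TK/IgG, against 6.04, 5.72 and 5.72 in WT/IgG, at least 1.72-fold lower. Gna14, Bcorl1, Dyrk2 and Sf3a2 were at least 1.45, 1.42, 1.33 and 1.28-fold lower.

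Genes listed for the p53 response halt the cell cycle, trigger death and repair DNA. By mean, 18 of 19 members tested were higher (median 0.22), 4 of them at an unadjusted p below 0.05, beside 1.16% of all genes. Trp53, the p53 gene itself, was listed but not tested, and p53 activity was not measured. Cdkn1a (p21), which stops the cycle, was at 10.22, 9.32 and 9.87 in TK/IgG, against 9.35, 8.63 and 8.59 in WT/IgG (0.95, SE 0.31, 3 probes of the same sign). TK/IgG replicate 2 lay just under the highest WT/IgG array. Fas, a death receptor, was at 7.94, 7.60 and 8.49 in TK/IgG, against 7.37, 7.14 and 7.51 in WT/IgG (0.67, SE 0.29, and 0.43 without TK/IgG replicate 3). Plk2 and Trp53inp1 differed by 0.89 and 0.59 with overlapping arrays. Polk, a DNA repair polymerase, lay higher on every TK/IgG array (0.30, SE 0.17, and 0.13 without TK/IgG replicate 1), and Mdm2, which holds p53 in check, differed by 0.24. With single arrays left out, the median of the list lay between 0.12 (WT/IgG replicate 2) and 0.32 (TK/IgG replicate 2).

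Stress genes were higher for 14 of 18 (median 0.20, and 0.09 without TK/IgG replicate 1). Arrays lay apart for 4 higher members and no lower one, beside 3.12% and 5.13% of all genes. Ddit3 (CHOP), a factor of the integrated stress response, was at 9.30, 8.08 and 8.4 in TK/IgG, against 7.89, 7.88 and 7.74 in WT/IgG (0.76, SE 0.32, and 0.41 without TK/IgG replicate 1). Xbp1, of the unfolded protein response, was at 12.08, 12.29 and 12.28 in TK/IgG, against 11.89, 12.01 and 12.04 in WT/IgG (0.24, SE 0.13). Immediate early and heat shock genes were higher for 12 of 14 (median 0.23, and 0.15 without WT/IgG replicate 2). Egr1 was at 10.87, 10.81 and 10.91 in TK/IgG, against 10.77, 10.51 and 10.66 in WT/IgG, a small but separate difference of 0.22 (SE 0.13). Hypoxia-inducible glycolysis genes were lower for 8 of 9 (median -0.10), while 12 of 15 other hypoxia targets were higher (median 0.08). Cell cycle genes had a median of -0.01 (11 of 27 higher), which was -0.16 without TK/IgG replicate 1 and 0.16 without TK/IgG replicate 2, with E2f1 lower on every array (-0.31, SE 0.17).

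**Figure D3:**
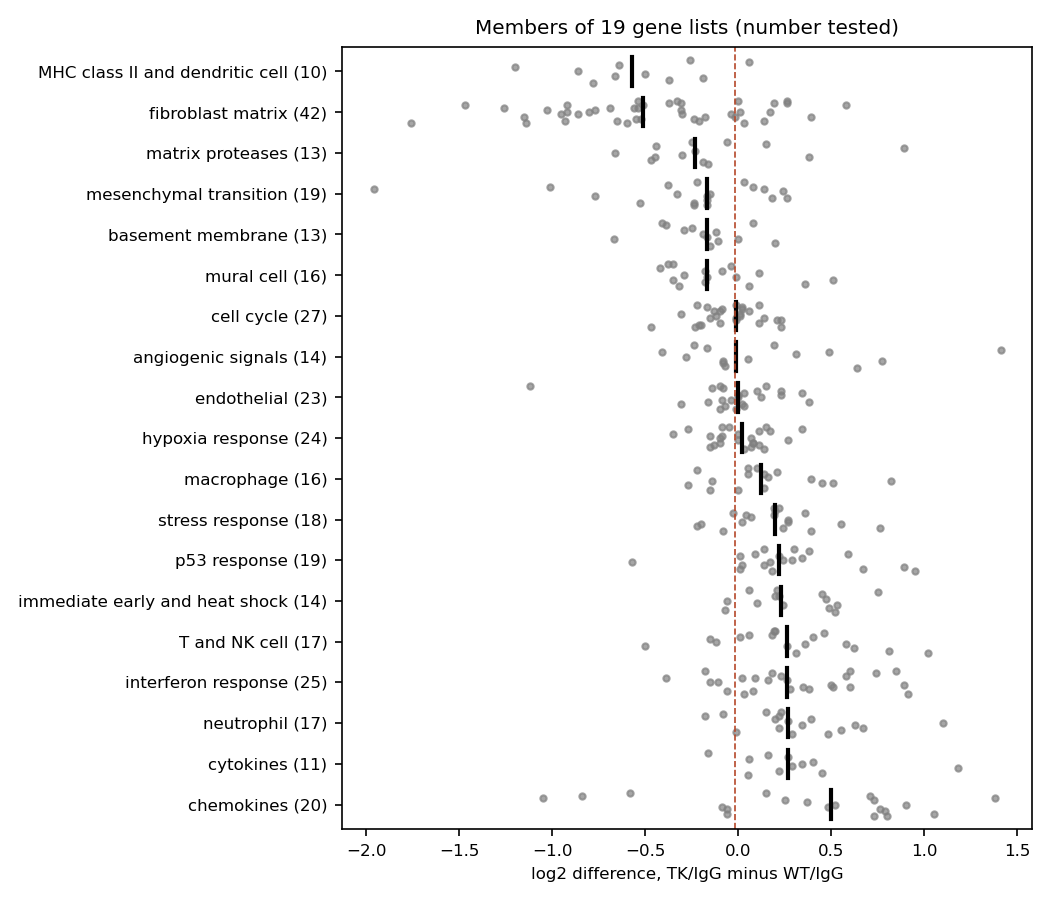
Difference in log2 signal, TK/IgG minus WT/IgG (horizontal axis), for each tested member (points) of 19 gene lists (rows, number of genes in brackets), with the median of each list (black bar) and of all genes (dashed line, -0.02). List medians run from -0.57 for MHC class II and dendritic cell genes to 0.50 for chemokines.

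Chemokines, which draw leukocytes into tissue, were higher for 14 of 20 tested (median 0.50, and 0.17 without TK/IgG replicate 3). Of the CC chemokines, 10 of 12 were higher (median 0.62). Ccl3, which attracts macrophages, was at 9.92, 7.48 and 8.04 in TK/IgG, against 7.78, 6.97 and 6.56 in WT/IgG (1.38, SE 0.63, and 0.66 without TK/IgG replicate 1). Ccl4 was at 11.01, 9.36 and 10.34 in TK/IgG, against 9.75, 8.90 and 8.91 in WT/IgG (1.05, SE 0.39, and 0.67 without TK/IgG replicate 1). In both, TK/IgG replicate 1 was highest and replicate 2 overlapped WT/IgG replicate 1. Cxcl14, made by fibroblasts and epithelium, was the 1 chemokine of 20 whose arrays lay apart, beside 5.13% of all genes lower in this way. It was lower, at 9.01, 9.60 and 9.25 in TK/IgG, against 10.33, 10.31 and 10.39 in WT/IgG (-1.05, SE 0.34, and -0.41 for its other probe). The WT/IgG arrays had an SD of 0.04.

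Cytokines were higher for 10 of 11 (median 0.27, and 0.08 without WT/IgG replicate 3). Csf2, the granulocyte-macrophage colony-stimulating factor, was at 6.60, 7.53 and 7.54 in TK/IgG, against 6.32, 5.52 and 6.31 in WT/IgG, and its arrays did not overlap (1.18, interval 0.41 to 1.94). Neutrophil genes were higher for 14 of 17 (median 0.27, and 0.08 without TK/IgG replicate 1), including 10 of 10 granule genes. Macrophage genes were higher for 12 of 16 (median 0.12, and -0.07 without WT/IgG replicate 2). Arg1, arginase of suppressive macrophages, was at 13.24, 13.13 and 12.82 in TK/IgG, against 13.13, 12.36 and 12.35 in WT/IgG (0.45, SE 0.23, and 0.71 without WT/IgG replicate 1). Complement genes had a median of 0.12 over 6 members (-0.16 without TK/IgG replicate 3).

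T and NK cell genes were higher for 14 of 17 tested, of 32 listed, with a median of 0.26 that turned to -0.11 without TK/IgG replicate 3. Tigit, an inhibitory receptor, was at 5.84, 5.60 and 5.81 in TK/IgG, against 4.98, 5.15 and 5.40 in WT/IgG (0.58, SE 0.17). It was detected on 3 TK/IgG arrays and 2 WT/IgG arrays. Tigit was the 1 member of 17 whose arrays lay apart, beside 3.12% of all genes higher in this way. Ctla4, another inhibitory receptor, was at 6.34, 5.05 and 6.41 in TK/IgG, against 4.69, 5.50 and 5.19 in WT/IgG (0.81, SE 0.38, and 1.25 without TK/IgG replicate 2). It was detected on 2 arrays of each group. Prf1, the pore-forming perforin of cytotoxic cells, was at 12.93, 10.53 and 10.84 in TK/IgG, against 10.76, 10.13 and 10.36 in WT/IgG (1.02, and 0.27 without TK/IgG replicate 1). Of the B and plasma cell list 2 of 10 genes passed the detection filter.

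Interferon-stimulated genes and MHC class II genes are shown with their promoters because the antiviral effectors and the MHC class II genes tested each stood on 1 side of 0 by mean. The promoters below run from 250 bases before to 50 bases after the RefSeq start of the gene (GRCm38.p6, 5′ to 3′ on the gene's strand), for 2 interferon genes and 1 MHC class II gene. Capitals mark the letters searched on both strands, the core of the interferon-stimulated response element (GAAA, any 2 bases and GAAA again), in Isg15 (3 overlapping matches, the first 78 bases before the start) and Rsad2 (1 match on the other strand, 120 bases before the start), and CTGATTGG, the inverted CCAAT motif of the Y box, in H2-Eb1 (1 match, 62 bases before the start).
Isg15, chr4:156200769-156201068, minus strand: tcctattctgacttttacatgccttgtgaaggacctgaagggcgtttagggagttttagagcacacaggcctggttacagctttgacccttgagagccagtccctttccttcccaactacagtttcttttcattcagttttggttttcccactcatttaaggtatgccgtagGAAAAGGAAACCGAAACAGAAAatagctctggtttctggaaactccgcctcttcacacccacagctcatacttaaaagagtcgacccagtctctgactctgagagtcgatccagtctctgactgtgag
Rsad2, chr12:26456403-26456702, minus strand: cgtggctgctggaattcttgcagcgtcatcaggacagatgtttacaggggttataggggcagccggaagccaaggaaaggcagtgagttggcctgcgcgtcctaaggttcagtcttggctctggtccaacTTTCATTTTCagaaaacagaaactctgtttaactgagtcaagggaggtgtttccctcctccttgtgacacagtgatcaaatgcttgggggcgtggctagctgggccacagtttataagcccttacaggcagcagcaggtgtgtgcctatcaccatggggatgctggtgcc
H2-Eb1, chr17:34305617-34305916, plus strand: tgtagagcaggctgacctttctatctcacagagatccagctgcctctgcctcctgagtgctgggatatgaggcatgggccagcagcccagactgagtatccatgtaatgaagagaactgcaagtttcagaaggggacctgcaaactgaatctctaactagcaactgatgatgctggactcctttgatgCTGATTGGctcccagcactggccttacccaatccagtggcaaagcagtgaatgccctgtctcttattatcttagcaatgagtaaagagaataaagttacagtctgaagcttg

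The interferon element core was found in 10 of the 20 interferon genes that have a promoter in the RefSeq table (25 were tested), against 3.99% of all 27025 promoters of the same length and 3.90% of those of tested genes. The 10 are Bst2, Gbp2, Gbp3, Ifit3, Igtp, Irgm1, Isg15, Oas1a, Rsad2 and Stat2. They include 5 of 9 antiviral effectors, 4 of 7 GTPases and antigen-processing genes and 1 of 4 transcription factors with a promoter. The list was written as genes of the interferon response, so a share above that of all promoters was built in. It says nothing about the difference between the groups. CTGATTGG was found in 2 of the 7 members of the MHC class II and dendritic cell list that have a promoter (10 were tested). The share was 4.70% of all promoters and 6.23% of those of tested genes. H2-Eb1, printed above, was the 1 match among 4 MHC class II genes with a promoter. The other match, Irf8, was 1 of 3 dendritic cell markers with a promoter and differed by 0.06. A match is a run of letters and not a measured binding site.

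Antiviral effectors were higher by mean for 14 of 14 (median 0.54), and the full interferon list for 20 of 25 (median 0.26), with no arrays apart. Isg15, a ubiquitin-like antiviral protein, was at 9.32, 9.22 and 10.91 in TK/IgG, against 9.31, 8.54 and 9.08 in WT/IgG (0.85, SE 0.54, and 0.30 without TK/IgG replicate 3). Rsad2 (viperin) was at 8.33, 7.79 and 9.89 in TK/IgG, against 7.77, 8.04 and 7.98 in WT/IgG (0.74, SE 0.54). Oas2, a sensor of double-stranded RNA, was at 6.82, 7.59 and 9.75 in TK/IgG, against 6.43, 7.83 and 7.16 in WT/IgG (0.91, and 0.07 without TK/IgG replicate 3). In each gene TK/IgG replicate 3 was the highest of the 6 arrays, and the other TK/IgG arrays lay among or near the WT/IgG arrays. The mean of the list was 8.49, 8.39 and 9.70 in TK/IgG, against 8.24, 8.87 and 8.59 in WT/IgG, and without TK/IgG replicate 3 its median was -0.09. Interferon-inducible GTPases and antigen-processing genes had a median of -0.06, with Gbp2 at -0.39.

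MHC class II genes, which present antigen on dendritic cells, B cells and activated macrophages, were lower for 7 of 7 tested (median -0.66), none with arrays apart. Ciita, the master regulator of the class, was at 4.65, 5.33 and 7.01 in TK/IgG, against 5.71, 7.60 and 7.28 in WT/IgG (-1.20, interval spanning 0, detected on 2 TK/IgG arrays). H2-Ab1 was at 8.79, 9.69 and 10.71 in TK/IgG, against 9.28, 11.23 and 11.02 in WT/IgG (-0.78, SE 0.58). H2-Eb1 was at 8.58, 9.68 and 10.89 in TK/IgG, against 9.02, 11.18 and 11.55 in WT/IgG (-0.86, SE 0.71). Replicate 1 was the lowest array of each group in all 3 genes. Leaving out TK/IgG replicate 1 brought the difference of H2-Eb1 to -0.30, and leaving out WT/IgG replicate 1 to -1.65. For H2-Ab1 these values were -0.31 and -1.39. Ciita was at -0.69 without TK/IgG replicate 1 and at -1.87 without TK/IgG replicate 3. For the list of 10 genes, with 3 dendritic cell markers, the median was -0.57, and ranged from -1.14 without WT/IgG replicate 1 to -0.26 without TK/IgG replicate 1. Most dendritic cell markers (6 of 9) did not pass the detection filter.

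Genes of skeletal muscle and skin were among those with the largest spread within groups, as were others such as Mpeg1 (residual SD 1.87) and Cxcl9 (1.57). Acta1, skeletal muscle actin, had the largest residual SD of the genes named here, 3.09. Myl1, a muscle myosin light chain, was at 6.29, 8.52 and 11.43 in TK/IgG, against 9.24, 6.04 and 10.70 in WT/IgG. Replicate 3 was the highest array of each group in Myl1. The summed linear signal of 17 muscle genes ranged from 2919 to 15402 in TK/IgG and from 3188 to 16177 in WT/IgG tumours. For 7 skin and hair genes it ranged from 2420 to 13034 in TK/IgG and from 1693 to 5165 in WT/IgG, and for 10 adipocyte genes from 1651 to 6291 in TK/IgG and from 1834 to 2920 in WT/IgG. TK/IgG replicate 3 stood highest for skin genes, with Krt17, a keratin of hair follicles and basal cells, at 7.02, 6.55 and 11.10 in TK/IgG and 7.72, 6.26 and 8.27 in WT/IgG. TK/IgG replicate 2 stood highest for fat genes, with the hormone gene Adipoq at 4.87, 9.38 and 7.11 in TK/IgG and 7.2, 4.91 and 6.90 in WT/IgG. TK/IgG replicate 3, highest for the interferon list, was thus also highest for the skin list. Mast cell genes were lowest on WT/IgG replicate 2, with the tryptase gene Tpsab1 at 9.10, 8.93 and 8.74 in TK/IgG and 9.26, 5.33 and 8.41 in WT/IgG. The origin of these tissue signals and their part in the other differences were not tested.

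Haemoglobin and platelet genes were higher for 7 of 9 (median 0.88, and 0.20 without WT/IgG replicate 1). Hba-a1 was at 13.55, 11.80 and 13.62 in TK/IgG, against 10.69, 12.82 and 12.29 in WT/IgG (1.06, SE 0.75, 0.44 without WT/IgG replicate 1 and 1.66 without TK/IgG replicate 2). TK/IgG replicate 2 and WT/IgG replicate 1 were the low arrays, and haemoglobin genes are close copies whose probes may share signal. Of milk proteins, which mammary epithelium secretes, Csn3 was the member tested, at 7.58, 7.39 and 8.17 in TK/IgG, against 5.91, 7.31 and 6.51 in WT/IgG (1.14, SE 0.35). Epithelial adhesion and surface genes were higher by mean for 9 of 9 (median 0.19, lowest 0.00 after rounding), none with arrays apart, and the whole epithelial list had a median of 0.15 (-0.05 without WT/IgG replicate 1). Nerve and Schwann cell genes had a median of 0.19 over 7 members (-0.10 without TK/IgG replicate 3), and TGF-beta and BMP genes -0.01 over 24.

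**Figure D4:**
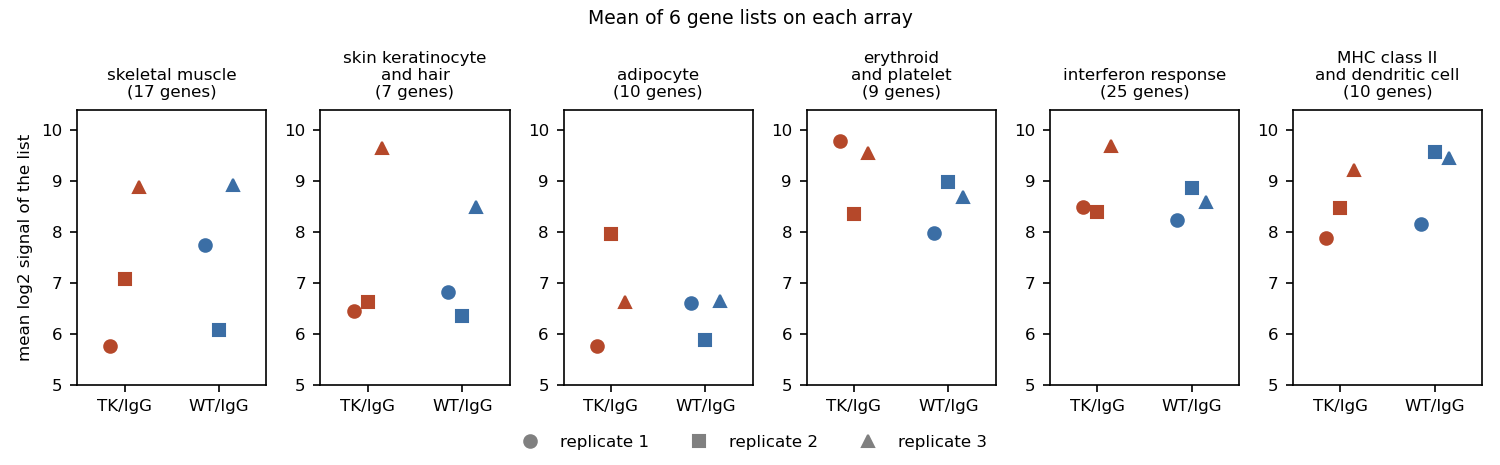
Mean log2 signal (vertical axis, 1 scale for all panels) of 6 gene lists on each TK/IgG array, left, and WT/IgG array, right, with symbols for replicates. Muscle genes averaged 5.77, 7.08 and 8.88 on the TK/IgG arrays and 7.74, 6.07 and 8.93 on the WT/IgG arrays, so the arrays of 1 group were farther apart than the group means.

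The other platform sets pericyte ablation against its labelled control, early and late in tumour progression, with 1 array per group. The titles of those samples name no control IgG. Its values are set beside these with no test. The labels give the PDGFRb-TK genotype for the control samples as well, while their descriptions call the controls wild type, and their hosts are taken here only as the labelled controls. Of 8677 genes measured on both platforms, 52.9% lay on the same side of 0 in the early pair as in TK/IgG minus WT/IgG, and 54.8% in the late pair. For genes at an unadjusted p below 0.05 and higher in TK/IgG, 51 of 94 (54.3%) were higher in the early pair and 64 (68.1%) in the late pair. For those lower in TK/IgG, 74 of 145 (51.0%) were lower in the early pair and 97 (66.9%) in the late pair.

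Pdgfrb was at 6.68 in late ablation and 7.46 in its control, a difference of -0.78, and at 7.04 in early ablation and 6.98 in its control. Slc24a3 differed by 0.10 early and 0.96 late, and Gpnmb by 0.10 early and 1.46 late. Fibroblast matrix genes had a median of 0.15 in the early pair, with 15 of 38 lower, and -0.76 in the late pair, with 32 of 38 lower. Col1a1 differed by 0.18 early and -3.19 late, Col6a2 by -0.08 and -2.24, Eln by 0.04 and -1.44, and Lum by -0.14 and -2.14. For these genes the early pair was near 0 and the late pair lay on the side of TK/IgG minus WT/IgG. Twist2 differed by 0.07 early and -1.08 late, Col15a1 by -0.30 and -1.29, and Cxcl14 by 0.02 and -1.10.

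Interferon genes were higher for 16 of 24 in the early pair (median 0.07) and 24 of 24 in the late pair (0.45). Chemokines had medians of 0.08 early and 0.47 late, with Ccl3 at 0.56 and 1.27 and Ccl4 at -0.14 and 1.57. The MHC class II and dendritic cell list was lower for 8 of 10 in both pairs, with H2-Eb1 at -1.07 early and -0.73 late. Endothelial genes, which had a median of 0.00 here, were lower for 14 of 21 early (-0.11) and 21 of 21 late (-0.51). The p53 list was higher for 12 of 16 early (0.13) and 5 of 16 late (-0.05). Vegfc differed by 0.24 in each pair, and Csf2 by 0.26 early and 0.50 late. Stard4 and H2ac21 stood above 0 in the early pair, at 0.53 and 0.35, and at -0.39 and 0.02 in the late pair.

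**Figure D5:**
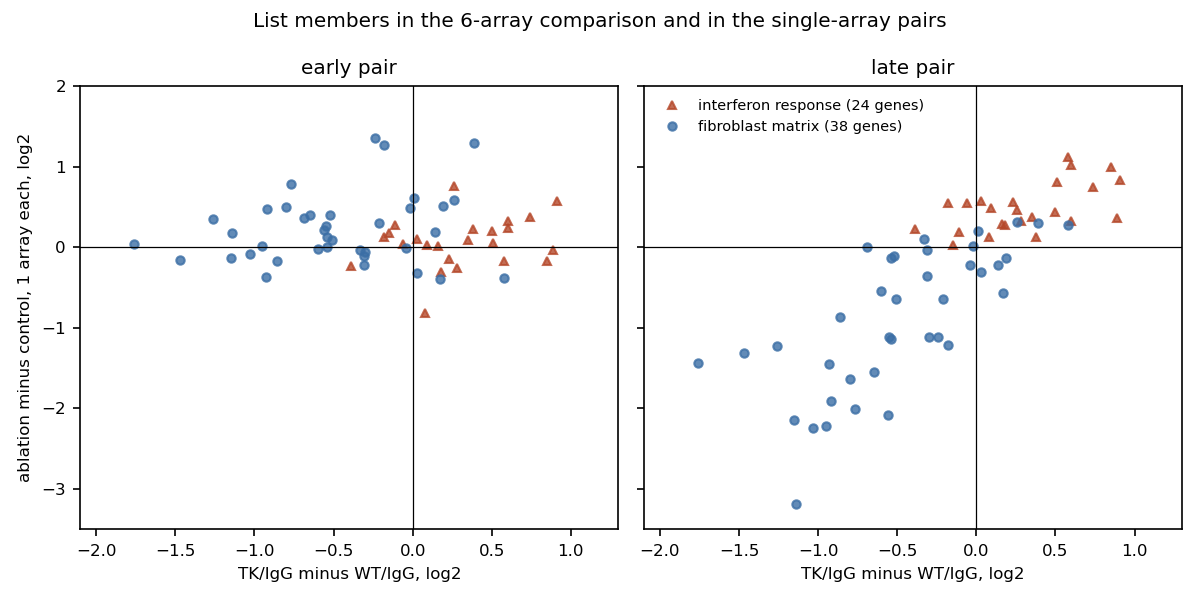
Difference in log2 signal in the early pair, left, and the late pair, right (vertical axes, ablation minus control, 1 array each), against TK/IgG minus WT/IgG (horizontal axes), for 24 interferon genes (red triangles) and 38 fibroblast matrix genes (blue circles). In the late pair 32 matrix genes lie below 0 and 24 interferon genes above it, and in the early pair 15 matrix genes lie below 0.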

How the data were processed

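Total RNA was labelled as biotinylated cRNA and read on Illumina bead arrays, per the labels' protocols. Per the file headers, the deposited tables give every probe on every array a linear intensity, not normalised, and a detection p-value. GenomeStudio is named in the submitters' processing notes, with its version not given in the sources used here. Within an array, the processed intensity values that the authors also deposited followed the raw signal linearly (largest residual 0.102, medians 12.6 to 19.4), with values below 0 and no centring, and served as an alternative. Another 6 columns of the larger file belong to no sample listed here and stayed unused. On the 4-array platform the late control's detection column repeats its signal and was not used.

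Samples were grouped by title. Of 45281 probes, 34885 had 1 gene symbol in the platform annotation, 18 several and 10378 none, and 34807 were matched to RefSeq (GRCm38.p6). On the 25697 probes of the other platform, 23978 had 1 symbol and 23962 were matched. Genes with no annotated probe were not analysed here. The 9 arrays were background-corrected and quantile-normalised to log2 signals by neqc, which reads the deposited detection p-values (limma 3.58.1, R 4.3.3, offset 16). The probe with the highest mean stood for a gene: 3941 genes had several probes, and in 1808 these disagreed in sign. Among the 85 such genes at an unadjusted p below 0.05, all probes had the same sign for 66. Groups were compared with lmFit and eBayes over 9 arrays in 3 groups, with Benjamini-Hochberg adjustment at 0.05, and single genes also by exact two-sided permutation. The fit was tested on simulated data. The 4 arrays were treated with normexp (offset 50) and quantile normalisation, and compared within pairs only.

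Genes are named by a rule. It takes 10 genes always, the 12 smallest p each way, up to 3 members per list (34 lists), the 5 largest bounds each way, and the 10 largest residual SDs among genes detected on all 6 arrays. Further list members are named to show their role or a contrast, and were chosen after their values were seen. The members, lists and rule were chosen with earlier results of these data known. The number of arrays limits the precision. Alternatives varied the background correction, scaling, value source, detection filter, probe choice, samples, weights, variance moderation and the replicate block. Each of the 6 TK/IgG and WT/IgG arrays was left out in turn, and of the TK/anti-Ang2 arrays replicate 2 alone.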

Additional observations from a re-analysis of the deposited data

Results flagged for a closer look

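In the single-array pairs, 4 skeletal muscle genes lay on opposite sides of 0. Acta1 differed by 6.23 (log2, ablation minus control) in the early pair and -2.01 in the late pair, Atp2a1 by 5.25 and -1.69, Myl1 by 5.41 and -1.48, and Tnnt1 by 2.58 and -1.01. They were picked because the pairs differ in direction by at least 1 each way. The difference between the pairs was not tested, since each group has 1 array. On the 6 arrays of TK/IgG and WT/IgG the same genes ranged widely within each group, with Atp2a1 at 4.64, 8.11 and 10.81 in TK/IgG and 9.47, 5.33 and 11.27 in WT/IgG.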

How the results depend on the processing

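No gene passed an adjusted p of 0.05 in limma under any alternative run. With no detection filter (19057 genes) the 307 genes at an unadjusted p below 0.05 became 659. With 1 of the 6 arrays or TK/anti-Ang2 replicate 2 left out they were 186 to 419. The count was lowest without WT/IgG replicate 2 and highest without TK/anti-Ang2 replicate 2. The share of genes whose arrays do not overlap was 8.25%, and 14.5 to 19.7% with 1 array left out, where 2 arrays face 3. With median scaling 66 genes were higher and 216 lower at an unadjusted p below 0.05, against 123 and 184, and arrays lay apart for 159 higher and 745 lower genes, against 330 and 542. Pdgfrb was below 0 throughout, from -1.21 to -0.92 with 1 array left out. Ngfr (0.72 on all arrays) ran from -0.10 without TK/IgG replicate 3 to 1.42 without TK/IgG replicate 2, and Pecam1 (0.34) from -0.07 without WT/IgG replicate 2 to 0.55 without WT/IgG replicate 3. The cause was not tested. The fibroblast matrix, MHC class II and dendritic cell, p53, interferon and chemokine medians kept their sign under the 5 background, scaling and value-source alternatives, while the interferon median was -0.09 without TK/IgG replicate 3. With the replicate number as a block, 352 genes had an unadjusted p below 0.05 and Pdgfrb differed by -1.10 (SE 0.27). The numbers are not taken to pair the samples. Same-numbered arrays had deviations correlated at 0.034, 0.0239 and 0.371, and differently numbered arrays at -0.316 to 0.256. These values do not decide whether the numbers pair samples. Dim probes limit what can be read: Tbx2 and Brinp3 have only bounds, and 462 genes were detected on exactly 3 of the 6 arrays.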
